A study of Homo sapiens with 9 samples.

Results

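The nuclear genes that encode the mitochondrial protein import machinery, and the chaperones that fold proteins once they are inside, were examined in U937 cells carrying shRNA against DEK. The set held 31 genes chosen by name. It comprised 11 genes of the outer membrane (counting the cytosolic TOMM34), 7 of the intermembrane space, 7 of the inner membrane and 6 of the matrix. Their 44 array probes were found by Entrez gene identifier, and 39 probes of 29 genes were detected above the negative control beads (detection p under 0.01) on at least 3 of the 9 arrays. Over the whole array, 14230 probes and 8611 named genes met the same condition. No probe was kept for TIMM13, a chaperone of the intermembrane space, or for TIMM50, the receptor subunit of the inner membrane translocase. These genes are therefore not described further.

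Nearly all mitochondrial proteins are made in the cytosol. The TOM complex of the outer membrane receives them, after which the SAM complex inserts barrel-shaped outer membrane proteins, the MIA pathway folds proteins of the intermembrane space, and small TIM chaperones carry hydrophobic carriers to the TIM22 complex. Proteins with a presequence pass through the TIM23 channel and are pulled into the matrix by a motor built on the Hsp70 protein HSPA9, cut by a processing peptidase and folded by the chaperonin HSPD1 with its lid HSPE1. The genes are expressed in nearly every cell type, myeloid cells included.

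U937 is a human line of myeloid character that was established from a histiocytic lymphoma. The cells were transduced with H1 lentiviral vectors carrying an shRNA against DEK (shDEK14 or shDEK17) or with the vector lacking an shRNA (shEMPTY), sorted for GFP after 48 h and grown for 4 more days before total RNA was hybridised to Illumina bead arrays. Each group held 3 arrays. The labels mark the arrays of every group Exp1 to Exp3 but do not say whether these were separate transductions, so each p-value reflects variation among arrays that may be technical.

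DEK is a chromatin protein and the target of both shRNAs, and its transcript, read by 1 kept probe, did not follow the labels. Its intensity was 2360, 359.4 and 2826 in the libraries labelled shDEK14 replicates 1 to 3 and 431.6, 1890 and 532.0 in those labelled shDEK17, against 2510, 293.9 and 2580 in those labelled shEMPTY. Thus 4 libraries lay below 1000, of which 1 was labelled shEMPTY, and 5 lay above, of which 3 were labelled with an shRNA. For U937 cells the study states that knockdown of DEK protein was verified by Western blot, 4 days after sorting. That blot was not analysed here. Every direction below is by label, and levels by DEK signal are given after it. Of 20 myeloid and U937 identity genes, 19 had a probe and 12 were detected on all arrays, whereas 6 epithelial markers were detected on none. Of markers of other blood cells, NKG7 of 6 T and NK cell genes and CD79B of 3 B cell genes with a probe were detected on all arrays, at median intensities of 282.6 and 448.6. The T cell genes CD3D, CD3E and CD3G, the B cell gene MS4A1 and the globins HBB and HBA1 were detected on none, and CD2, CD79A, PPBP and ITGA2B on 1 to 8 arrays. The summed intensity was 781 to 901 for the T and NK cell genes in libraries labelled with an shRNA, against 826 to 917 in those labelled shEMPTY, and 665 to 986 against 713 to 993 for the B cell genes. Their part in the results was not tested. The library labelled shEMPTY replicate 2 also stood apart in 22 interferon response genes, with a median deviation of 2.78 on the log2 scale from their means over all libraries. In the other 8 libraries that median was between -0.58 and -0.20. The part of this library in the results was not tested, and values without it are given for some genes only.

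For the average of both shRNAs, 20 of the 29 import genes had a lower mean than in shEMPTY and 9 a higher one, with a median log2 fold change of -0.08 and a range of -0.36 to 0.36. Over all 8611 genes, 51.9% were lower and the median was -0.01. The standard errors of the 29 fold changes were between 0.13 and 0.25, and 6 genes had a fold change larger than its error, where 34.7% of all genes did. No import gene passed an adjusted p of 0.05 in limma, the lowest being 0.937, and neither did any other gene on the array (0% of genes tested). At an unadjusted p under 0.05, limma counted 1 import gene of 29 (TIMM23, 3.45%), beside 5.24% of all genes, and 0 with the Exp number as a block. Without shDEK14 replicate 3 and shDEK17 replicate 1, 14 genes were lower and the median was 0.01. These were the 2 libraries in which the set was lowest, and they were picked after seeing the data. Both carry an shRNA label, so that leaving them out raises the shRNA mean of the set by construction. No conclusion is drawn from that fit. In bulk RNA, fewer cells of a kind and less RNA per cell cannot be told apart.

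**Figure D1:**
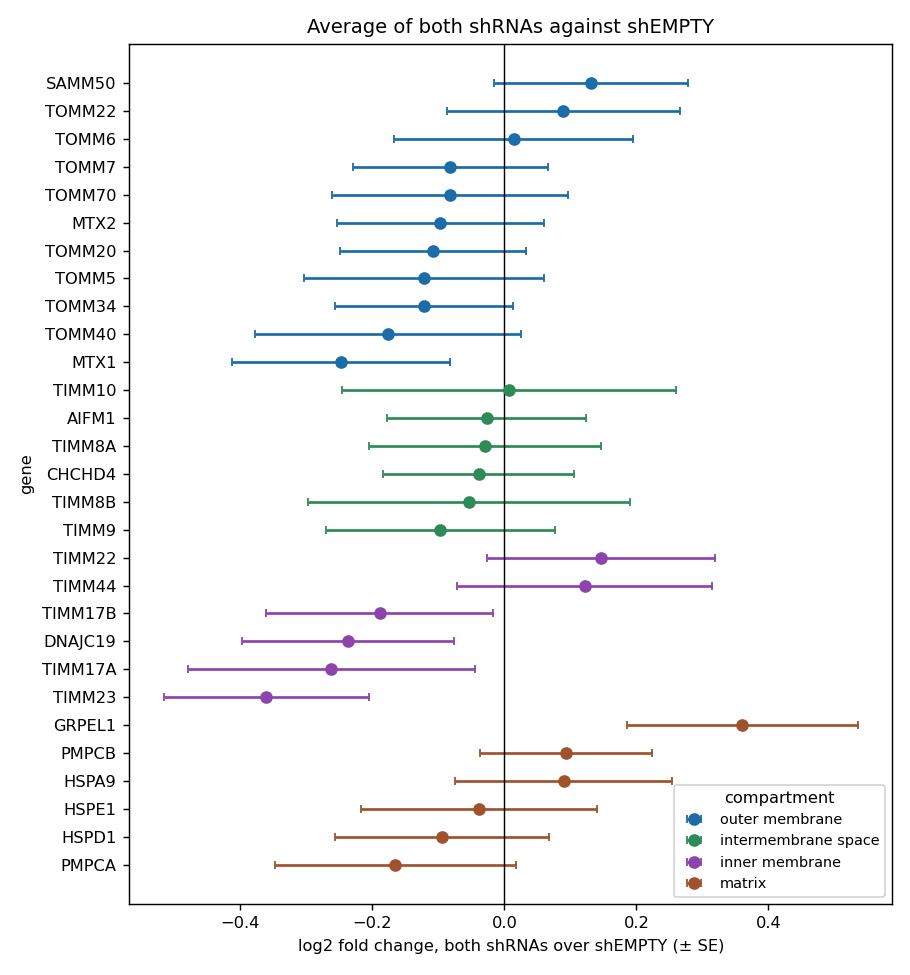
Log2 fold change of each import and chaperone gene, average of both shRNAs over shEMPTY, with its standard error (limma, 6 libraries against 3), grouped and coloured by compartment. The error bars of 6 of the 29 genes do not reach 0, and TIMM23 at -0.36 and GRPEL1 at 0.36 are the ends of the range.

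In the outer membrane, the fold change was negative for 8 of 11 genes and positive for 3, with a median of -0.10. TOMM40 is the pore of the TOM complex. It had log2 values of 12.07, 12.07 and 11.70 in libraries labelled shDEK14 and 11.55, 12.40 and 12.40 in libraries labelled shDEK17, against 12.29, 12.19 and 12.14 in libraries labelled shEMPTY. All 3 libraries labelled shDEK14 therefore lay below those labelled shEMPTY, while those labelled shDEK17 lay on both sides. The receptors TOMM20 and TOMM70, which bind presequences and hydrophobic precursors, had fold changes of -0.11 and -0.08. TOMM20 had another kept probe at 0.05, and it was the only 1 of 7 import genes with several kept probes whose probes differed in sign. The small subunits TOMM5, TOMM6 and TOMM7, which stabilise the complex, had fold changes of -0.12, 0.01 and -0.08.

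TOMM22, the central receptor that holds the TOM pores together, varied most in this compartment. Its log2 values were 10.62, 10.47 and 10.26 in libraries labelled shDEK14 and 9.64, 10.37 and 10.21 in libraries labelled shDEK17, against 10.18, 10.18 and 10.16 in libraries labelled shEMPTY. The controls were nearly identical (10.17 ± 0.01, SD, n = 3), and the libraries labelled shDEK14 all lay above them. Between the shRNAs, TOMM22 had the lowest p of the set, with a log2 fold change of 0.38 ± 0.20 (SE) for shDEK14 over shDEK17 and an adjusted p of 0.999 in limma. Without the library labelled shDEK17 replicate 1 the fold change was 0.16.

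MTX1, an import factor that works with the SAM complex, had the lowest fold change of the compartment. Its log2 values were 7.05, 7.23 and 6.97 in libraries labelled shDEK14 and 6.88, 7.02 and 7.49 in libraries labelled shDEK17, against 7.48, 7.30 and 7.27 in libraries labelled shEMPTY. Of the 6 libraries labelled with an shRNA, all but shDEK17 replicate 3 were below the controls, for a fold change of -0.25 ± 0.16 (SE, adjusted p = 0.960 in limma). SAMM50, the SAM channel, was the other way round at 0.13 ± 0.15 (SE, adjusted p = 0.966 in limma), or 0.05 without shEMPTY replicate 2 and 0.20 without shEMPTY replicate 1. Its partner MTX2 had a fold change of -0.10 by the main probe and -0.26 by its other kept probe. TOMM34, a cytosolic co-chaperone of precursor proteins that was counted with the outer membrane, had -0.12. TOMM5 spanned 10.90 in shDEK14 replicate 3 to 11.76 in shDEK17 replicate 3, and its 3 control libraries at 11.48, 11.20 and 11.29 lay between these values.

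In the intermembrane space, 5 of 6 genes were lower and 1 was higher, with a median of -0.03 and a lowest fold change of -0.10 (TIMM9). TIMM10 forms the chaperone ring of the space with TIMM9 and varied more between libraries than any other import gene, with a range of 1.31 on the log2 scale. It had values of 10.82, 10.47 and 10.33 in libraries labelled shDEK14 and 9.56, 10.87 and 10.62 in libraries labelled shDEK17, against 10.57, 10.38 and 10.35 in libraries labelled shEMPTY. The value in shDEK17 replicate 1 lay below all the others, and the remaining 8 overlapped. The fold change was 0.01 ± 0.25 (SE, adjusted p = 0.997 in limma).

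TIMM9 had values of 9.74, 9.44 and 9.34 in libraries labelled shDEK14 and 9.22, 9.79 and 9.47 in libraries labelled shDEK17, against 9.37, 9.78 and 9.65 in libraries labelled shEMPTY. The lowest value was again that of shDEK17 replicate 1. TIMM8A and TIMM8B pair with TIMM13 in the other ring, and TIMM8A had a fold change of -0.03. TIMM8B ranged from 8.07 in shDEK17 replicate 1 to 9.21 in shDEK17 replicate 3, so that libraries of 1 group held both ends. Its fold change was -0.05 ± 0.24 (SE, adjusted p = 0.991 in limma). CHCHD4, the oxidoreductase of the MIA pathway, and AIFM1, its binding partner, had fold changes of -0.04 and -0.03.

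In the inner membrane, 4 of 6 genes were lower and 2 were higher, with a median of -0.21. TIMM23, the channel subunit of the presequence translocase, lay in all 6 libraries labelled with an shRNA below all 3 controls. It was the only import gene to do so, where 1.59% of all genes did, and none lay above in all 6, where 1.5% of all genes did. The log2 values were 11.81, 12.24 and 11.89 in libraries labelled shDEK14 and 12.01, 11.81 and 12.18 in libraries labelled shDEK17, against 12.35, 12.46 and 12.25 in libraries labelled shEMPTY. The gap was narrow, since shDEK14 replicate 2 at 12.24 lay next to shEMPTY replicate 3 at 12.25. The fold change was -0.36 ± 0.16 (SE, adjusted p = 0.937 in limma), and it was -0.37 for shDEK14 and -0.35 for shDEK17. When single libraries were left out it stayed between -0.42 and -0.31.

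In all, 4 kept probes carried the name TIMM23, and levels were compared only within a probe. The second probe read 9.53, 9.98 and 9.23 in libraries labelled shDEK14 and 9.69, 9.72 and 9.92 in libraries labelled shDEK17, against 10.17, 10.15 and 10.26 in libraries labelled shEMPTY. The fold changes of all 4 probes were between -0.51 and -0.29, and 3 of the 4 had no overlap between shRNA and control libraries. In the remaining probe the control value of 8.76 in shEMPTY replicate 3 was exceeded by 8.88 in shDEK14 replicate 2 and by 8.79 in shDEK17 replicate 1. The probes are 4 readings of the same 9 RNA samples. A near-identical gene, TIMM23B, lies on the same chromosome and could share these probes.

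**Figure D2:**
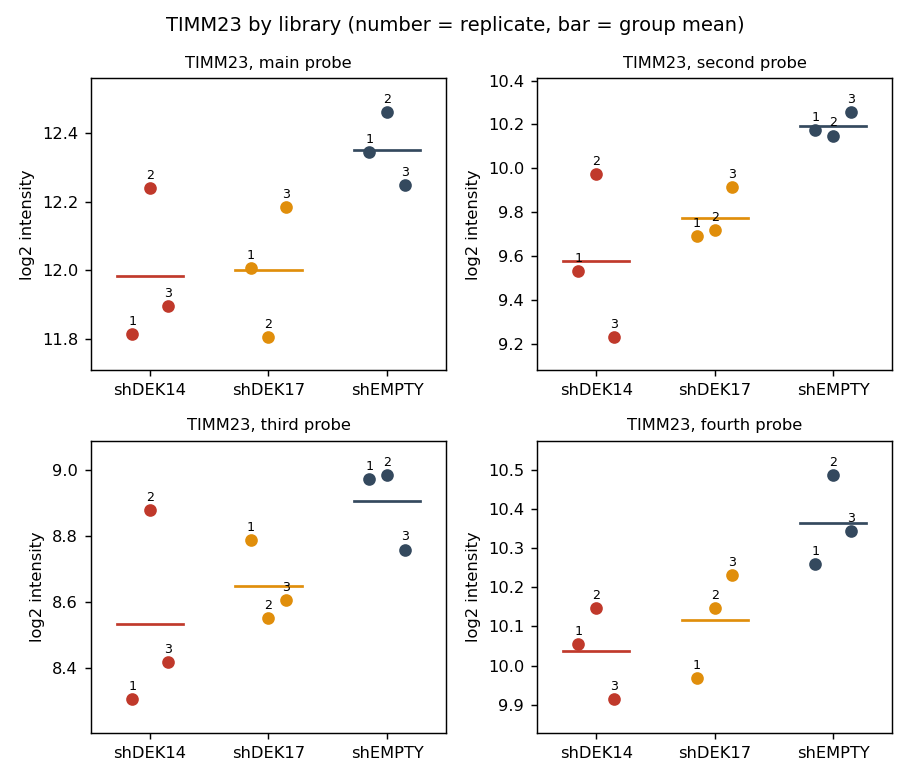
Log2 intensity of TIMM23 in each library by 4 probes, grouped by label, with the replicate number above each point and a bar at the group mean. The libraries labelled shEMPTY are highest in each panel on average, and shDEK14 replicate 2 lies closest to them for the main probe, at 12.24.

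The bases before the start of TIMM23 are shown because it was the gene whose groups did not overlap. They span chr10:45972239-45972488 on the plus strand (GRCh38.p14, RefSeq), are written 5′ to 3′ and end at the base before the annotated start. Capitals mark the letters CCGGAAG on either strand, a core of ETS family sites.
TIMM23: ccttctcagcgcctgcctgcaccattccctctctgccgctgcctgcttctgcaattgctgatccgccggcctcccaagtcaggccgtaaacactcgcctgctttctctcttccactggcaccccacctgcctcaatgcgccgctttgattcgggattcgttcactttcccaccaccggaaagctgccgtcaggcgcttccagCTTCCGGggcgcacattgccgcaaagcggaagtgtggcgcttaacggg

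The match began 48 bases before the start. Of the 31 genes, 28 had a promoter in the RefSeq table, with 32 promoters in all. CCGGAAG lay in the 250 bases before the start of 7 of these 28 genes (TIMM23, TIMM10, TIMM13, TOMM6, TOMM20, TOMM70 and PMPCB). It lay in 7 of the 32 promoters, beside 8.52% of all 35116 promoters, and the difference was not tested. The letters GCGCATGCG, known for the mitochondrial biogenesis factor NRF1, lay before CHCHD4, TIMM9 and TOMM7 and in 1.64% of all promoters. Among the genes with CCGGAAG, the fold change was -0.36 for TIMM23, -0.11 for TOMM20 and -0.08 for TOMM70. It was 0.01 for TIMM10, 0.01 for TOMM6 and 0.09 for PMPCB, and TIMM13 had no kept probe. A link between the letters and the fold changes was not tested. A match describes letters only.

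TIMM17A and TIMM17B are alternative partners of TIMM23 in the channel. TIMM17A was faint, detected on 6 of 9 arrays, with log2 values of 6.26, 5.22 and 6.04 in libraries labelled shDEK14 and 5.92, 5.98 and 5.80 in libraries labelled shDEK17, against 6.15, 5.88 and 6.37 in libraries labelled shEMPTY. The groups overlapped, with a fold change of -0.26 ± 0.22 (SE, adjusted p = 0.964 in limma), or -0.11 without shDEK14 replicate 2. TIMM17B had a fold change of -0.19. DNAJC19, the J-protein that stimulates the import motor, had values of 7.72, 7.71 and 7.57 in libraries labelled shDEK14 and 7.56, 7.38 and 7.29 in libraries labelled shDEK17, against 7.48, 8.07 and 7.78 in libraries labelled shEMPTY. It had the lowest p of the set for shDEK17 over shEMPTY, at a fold change of -0.37 ± 0.18 (SE, adjusted p = 0.999 in limma), and the control in shEMPTY replicate 1 lay within the shDEK17 values. Its high value of 8.07 was in shEMPTY replicate 2, the library with the high interferon response, without which that fold change was -0.22. RefSeq names 9 pseudogenes for it whose transcripts the probe might also read.

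TIMM22, the carrier translocase, and TIMM44, which tethers the motor to the channel, had positive fold changes of 0.15 ± 0.17 and 0.12 ± 0.19 (SE, adjusted p = 0.966 and 0.981 in limma). That of TIMM22 was 0.07 without either shEMPTY replicate 2 or shDEK17 replicate 3, and 0.24 without shEMPTY replicate 1. TIMM44 had log2 values of 7.53, 7.57 and 7.41 in libraries labelled shDEK14 and 7.04, 7.51 and 7.85 in libraries labelled shDEK17, against 7.52, 7.04 and 7.53 in libraries labelled shEMPTY. Libraries of both kinds shared the low value of 7.04, and without shEMPTY replicate 2 the fold change was -0.04.

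In the matrix, 3 of 6 genes were higher and 3 were lower, with a median of 0.03. GRPEL1, the nucleotide exchange factor of HSPA9, had the highest fold change of the whole set. Its log2 values were 10.43, 10.27 and 10.48 in libraries labelled shDEK14 and 10.01, 10.61 and 10.02 in libraries labelled shDEK17, against 9.93, 10.16 and 9.75 in libraries labelled shEMPTY. All libraries labelled shDEK14 lay above the controls, whereas shDEK17 replicates 1 and 3 lay among them. The average fold change was 0.36 ± 0.17 (SE, adjusted p = 0.948 in limma), with 0.45 ± 0.20 for shDEK14 (SE, adjusted p = 0.954 in limma) and 0.27 for shDEK17. Without shEMPTY replicate 2 the average was 0.47.

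HSPA9 itself had values of 12.27, 12.08 and 12.44 in libraries labelled shDEK14 and 11.96, 12.18 and 11.81 in libraries labelled shDEK17, against 11.74, 12.20 and 12.15 in libraries labelled shEMPTY, with a fold change of 0.09. The processing peptidase subunits PMPCA and PMPCB had fold changes of -0.17 and 0.09. PMPCB was the steadiest gene of the set, with a range of 0.24 between 9.85 and 10.09, and within it the libraries labelled shDEK17 (10.06, 9.99 and 10.05) all lay above those labelled shEMPTY (9.85, 9.96 and 9.92). PMPCA was high in shEMPTY replicate 1 at 9.11, against 8.32 to 8.73 in the libraries labelled with an shRNA, and without that library its fold change was 0.05. Without shEMPTY replicate 2 instead, the fold change of PMPCA was -0.32.

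HSPD1 and HSPE1 are transcribed away from each other on chromosome 2 from starts 105 bases apart, so that 1 stretch of DNA serves as the promoter of both. The 250 bases before HSPE1 are shown for that reason. They span chr2:197500129-197500378 on the plus strand (GRCh38.p14, RefSeq) and hold the start of HSPD1, which runs the other way from 197500274. Capitals mark CACGTG, the E-box letters, which read the same on both strands.
HSPE1: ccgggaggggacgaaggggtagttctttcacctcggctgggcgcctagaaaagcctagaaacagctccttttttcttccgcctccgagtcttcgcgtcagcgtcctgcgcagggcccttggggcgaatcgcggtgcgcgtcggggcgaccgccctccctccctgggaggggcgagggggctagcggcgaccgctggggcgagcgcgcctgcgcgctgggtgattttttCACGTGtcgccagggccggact

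CACGTG lay before 4 of the 28 genes with a promoter (HSPA9, HSPD1, HSPE1 and TOMM20) and in 6.34% of all promoters. The site shown above lies between the starts of HSPD1 and HSPE1, so that it counts for both genes. The heat shock element letters GAANNTTC, searched on both strands, lay before HSPD1 alone and in 5.78% of all promoters. They do not occur in the bases shown before HSPE1. HSPD1 had log2 values of 12.92, 12.92 and 13.08 in libraries labelled shDEK14 and 12.76, 13.23 and 13.08 in libraries labelled shDEK17, against 12.93, 12.98 and 13.36 in libraries labelled shEMPTY. HSPE1 had 12.40, 11.96 and 12.33 in libraries labelled shDEK14 and 12.38, 12.08 and 12.03 in libraries labelled shDEK17, against 12.15, 11.97 and 12.57 in libraries labelled shEMPTY. By these main probes both were highest in shEMPTY replicate 3, while shDEK17 replicate 1 was lowest for HSPD1 but not low for HSPE1. The order of libraries depended on the probe. The other HSPE1 probe was low in shDEK17 replicate 1 at 11.28 and highest in shDEK14 replicate 1 at 12.04. A further HSPD1 probe was lowest in shDEK17 replicate 3 at 11.63 and highest in shDEK17 replicate 2 at 12.56. The remaining HSPD1 probe was lowest in shDEK17 replicate 1 at 6.49 and highest in shEMPTY replicate 1 at 7.43. The fold changes of HSPD1 and HSPE1 were -0.09 and -0.04 by the main probes. The other kept probes gave -0.17 and -0.35 for HSPD1 and -0.15 for HSPE1, and the groups overlapped in each. RefSeq names 22 pseudogenes for HSPD1 and 28 for HSPE1, and their part in these readings was not tested.

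**Figure D3:**
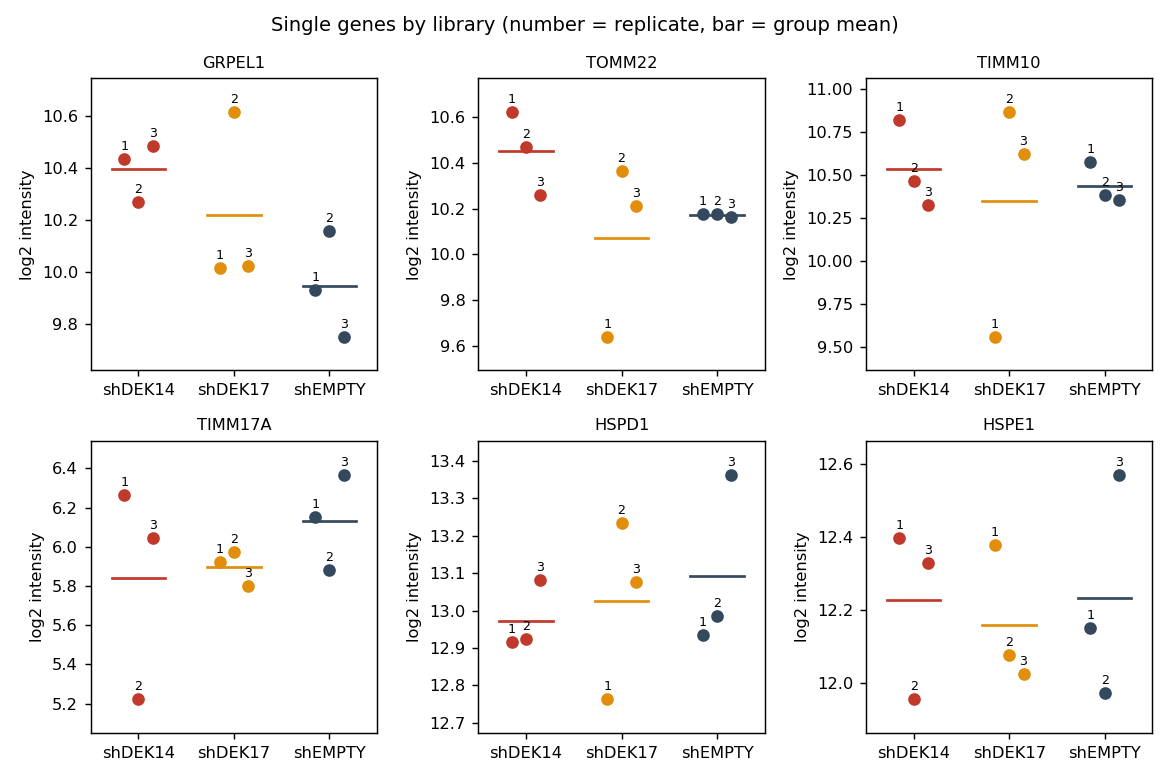
Log2 intensity of 6 genes in each library, grouped by label, with the replicate number above each point and a bar at the group mean. GRPEL1 and TOMM22 are above all controls in the libraries labelled shDEK14, TIMM10 and TOMM22 are lowest in shDEK17 replicate 1, and HSPD1 and HSPE1 overlap in all groups.

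Each shRNA was also set against shEMPTY alone. These contrasts share the same controls. For shDEK14 over shEMPTY the median was -0.09, 1 gene (GRPEL1) had an unadjusted p under 0.05 in limma (3.45%) beside 4.53% of all genes, 2 genes (GRPEL1 and TOMM22, 6.9%) lay above in all libraries beside 5.49%, and 3 (TIMM23, TOMM40 and MTX1, 10.3%) lay below beside 5.56%. For shDEK17 over shEMPTY the median was -0.07, no gene had an unadjusted p under 0.05 beside 3.8% of all genes, and PMPCB lay above in all libraries beside 4.03% and TIMM23 below beside 4.15%. For shDEK14 over shDEK17 the median was -0.05 and no gene had an unadjusted p under 0.05, beside 1.81% of all genes. In that contrast DNAJC19 lay above in all libraries beside 2.55% and TOMM20 below beside 2.53%. None of these 3 contrasts had a gene past an adjusted p of 0.05 in limma, in the set or on the array (0% of genes tested). The methods' t-test on the same values, at an unadjusted threshold, named GRPEL1 for shDEK14 (5.28% of all genes passed), PMPCB and TIMM23 for shDEK17 (3.82%) and no import gene for shDEK14 over shDEK17 (2.23%), and none after Benjamini-Hochberg adjustment.

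Over the 9 libraries the import genes had a median range of 0.65 on the log2 scale, beside 0.79 over all genes. To see in which libraries they were low, each gene was set against its own mean over the 9 libraries. The median deviation of the 29 genes was -0.07, 0.04 and -0.09 in libraries labelled shDEK14 and -0.17, 0.07 and 0.08 in libraries labelled shDEK17, against 0.07, -0.03 and 0.06 in libraries labelled shEMPTY. Libraries with the lowest and the highest medians thus both carried the label shDEK17. The library labelled shDEK17 replicate 1 held the lowest value of 9 of the 29 genes (31% of them, beside 16% of all genes) and the highest of none, while shDEK17 replicate 3 held the highest value of 7 genes (24.1%, beside 13.7% of all genes).

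The compartments did not follow 1 order in every library. In shDEK17 replicate 1 the intermembrane space was lowest with a median deviation of -0.32, followed by the outer membrane at -0.17, the matrix at -0.15 and the inner membrane at -0.05. In shDEK14 replicate 3 the intermembrane space and the inner membrane were low, at -0.16 and -0.13, but the matrix was high at 0.12. In the same libraries a list of 26 tested genes of ribosome biogenesis and growth, among them MYC and genes known as its targets, had median deviations of -0.54 in shDEK17 replicate 1 and -0.32 in shDEK14 replicate 3, and between -0.03 and 0.22 in the other 7. Not every gene of the list was low in shDEK17 replicate 1, where MYC was at 11.33 and CAD at 7.24, each the second highest of its 9 values. The part of the list in the result was not tested.

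**Figure D4:**
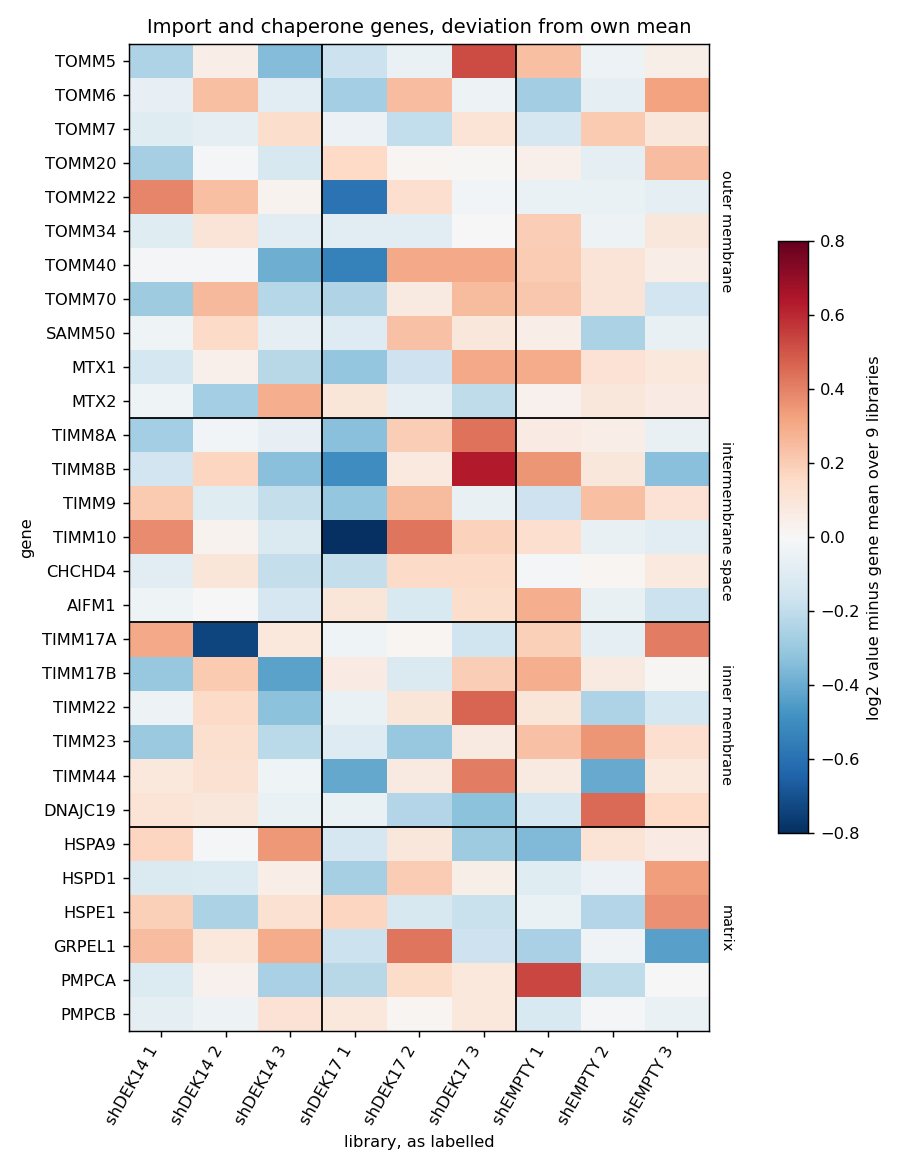
Deviation of each of the 29 genes from its own mean over the 9 libraries (log2, blue lower and red higher), by compartment and by library as labelled. The column of shDEK17 replicate 1 is mostly blue, with TIMM10 as its deepest value, while shDEK17 replicate 3 is mostly red in the intermembrane space.

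The levels were then set against the DEK signal itself, as values and ranges only, since the libraries were not labelled by it. In the 4 libraries with DEK below 1000 the median deviation of the 29 genes ranged from -0.17 to 0.08, against -0.09 to 0.07 in the 5 libraries above. The outer membrane ranged from -0.17 to 0.09 below and from -0.09 to 0.07 above. The intermembrane space ranged from -0.32 to 0.17 below and from -0.16 to 0.17 above. The inner membrane ranged from -0.05 to 0.14 below and from -0.13 to 0.15 above. These ranges overlapped in each of the 3 compartments. The matrix was the most one-sided, from -0.15 to -0.03 below and from -0.11 to 0.12 above, and it overlapped as well.

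Of single genes, only TIMM17A lay on 1 side, at 5.22 to 5.92 in the libraries with DEK below 1000 and at 5.98 to 6.37 in those above, and no import gene lay wholly above. Of all genes, 1.18% lay wholly below and 1.15% wholly above in the same way. TIMM17A was not detected in 3 of the 9 libraries (shDEK14 replicate 2 and shDEK17 replicates 1 and 3), each of which had DEK below 1000, so its values there are near the detection limit. TIMM23, which did not overlap by label, did overlap by DEK signal, at 12.01 to 12.46 below and 11.81 to 12.35 above.

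**Figure D5:**
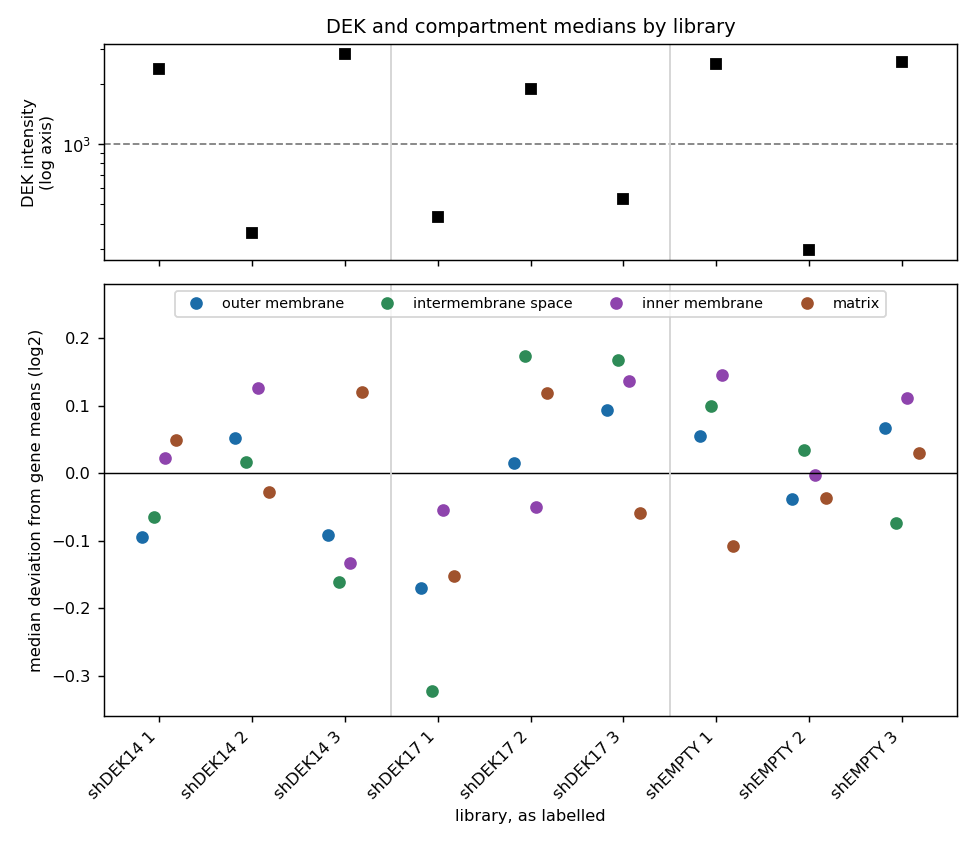
Upper panel, DEK probe intensity in each library (log axis, dashed line at 1000). Lower panel, median deviation of the genes of each compartment from their own means (log2) in the same libraries, where the lowest point is the intermembrane space in shDEK17 replicate 1 at -0.32 and no compartment separates the 4 libraries below the line from the 5 above it.

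Other genes that serve the same organelle were taken from lists beside the set, and in each of the following none passed an adjusted p of 0.05 in limma for the average of both shRNAs. Among 19 tested import factors outside the set, such as motor and insertase subunits and cytosolic chaperones, 8 were higher and 11 lower, with a median of -0.02. Presequence peptidases and quality control proteases had 2 higher and 11 lower of 13, with a median of -0.03, and other mitochondrial chaperones had 2 higher and 7 lower of 9, with a median of -0.05. The MICOS and membrane organisation genes had 6 higher and 9 lower of 15, with a median of -0.03. Mitochondrial ribosomal proteins had 10 higher and 19 lower of 29, with a median of -0.05, and respiratory chain subunits had 16 higher and 24 lower of 40, with a median of -0.08.

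Of the genes in these lists and in a list of 16 tested biogenesis and stress regulators, 3 had an unadjusted p under 0.05 in limma. They were 12.5% of the regulators, 3.45% of the mitochondrial ribosomal proteins and 0% of each other list, beside 5.24% of all genes. They are named after their values were seen. PPRC1, a coactivator of mitochondrial biogenesis, had log2 values of 9.06, 9.34 and 9.02 in libraries labelled shDEK14 and 9.21, 9.49 and 9.15 in libraries labelled shDEK17, against 8.89, 8.97 and 8.73 in libraries labelled shEMPTY. All libraries labelled with an shRNA lay above the controls, with a fold change of 0.35 ± 0.15 (SE, adjusted p = 0.937 in limma). TFB2M, a mitochondrial transcription factor, and MRPS22, a protein of the small mitochondrial ribosomal subunit, had fold changes of -0.37 ± 0.16 and -0.43 ± 0.15 (SE, adjusted p = 0.937 for each in limma). MRPS22 had 10.23, 10.57 and 10.42 in libraries labelled shDEK14 and 10.57, 10.55 and 10.70 in libraries labelled shDEK17, against 11.09, 10.99 and 10.73 in libraries labelled shEMPTY, so its groups did not overlap either. All 6 libraries labelled with an shRNA lay above the controls in 1.5% of all genes and below in 1.59%. By list, 6.25% of the regulators lay above, and 3.45% of the mitochondrial ribosomal proteins and 5% of the respiratory chain subunits lay below. In the lists of the organelle, COX5A at -0.15 and ATP5F1C at -0.20, both subunits of respiratory chain complexes, were also below in all 6.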

How the data were processed

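RNA of 9 arrays (Illumina HumanHT-12 v4, 47323 probes) was analysed. The authors deposited average bead intensity on a linear scale, neither normalized nor background-subtracted, with a detection p-value per probe against the negative control beads. The sources used here do not give the scanner software. The authors also deposited a table of the same intensities scaled to a mean of 406.2 per array (linear, not centred, with array medians of 110.1 to 119.3), which was used as an alternative. Mean intensity per array was 362.2 to 457.2, and the number of arrays limits the precision.

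Intensities were corrected in limma 3.58.1 (R 4.3.3) with neqc, an offset of 16 and quantile normalization on the log2 scale. For 2156 genes with more than 1 kept probe, the brightest on average was used. All arrays entered 1 fit with a mean per group, and 4 contrasts were adjusted by Benjamini-Hochberg over 8611 genes at 0.05. Probe names came from the platform annotation, and 30074 of the named probes matched RefSeq (GRCh38.p14). The model was tested on simulated data. The planted changes were larger than any fold change of the import genes, so that test does not cover changes of their size. Named genes were DEK, up to 4 import genes per direction (non-overlapping groups first, then lowest p), the lowest p of each other contrast and the 2 of widest range per compartment. The members, lists and rule were chosen with earlier results of these data known. The labels mark the arrays of each group Exp1 to Exp3, but deviations of same-numbered arrays correlated between -0.43 and 0.27, so that the main fit had no block. Those of arrays with different numbers correlated between -0.24 and 0.47. Variation shared across groups in another order than the Exp number is not modelled by either fit. Alternatives covered background correction, normalization, probe filter and choice, array weights, variance trend, the replicate block, the groups fitted, the methods' t-test and arrays left out.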

Additional observations from a re-analysis of the deposited data

How the results depend on the processing

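No import gene passed the threshold for the average of both shRNAs under any alternative, and 14 to 23 of 29 were lower. TIMM23 stayed between -0.44 and -0.31 and GRPEL1 between 0.26 and 0.47 (adjusted p between 0.658 and 0.999 for both in limma). Over the whole array, leaving out all arrays numbered 2 gave 1 gene past the threshold for the average (MYBPH), 4 for shDEK14 over shEMPTY (MYBPH, GUCY1A1, GPR34 and CTSG), 1 for shDEK17 over shEMPTY (DEK, at -2.68) and 10 for shDEK14 over shDEK17, where the other alternatives gave 0. None of these was an import gene.

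The median of the import genes for shDEK17 over shEMPTY was 0.062 without shDEK14 replicate 3 and shDEK17 replicate 1 together, an alternative chosen after seeing the data, and 0.083 without all arrays numbered 1. With single arrays left out it ranged from -0.095 to 0.062, the upper end without shDEK17 replicate 1. For shDEK14 over shDEK17 it was -0.15 without those arrays. With both low libraries left out, the average median was 0.01.

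Single fold changes for the average that turned direction were as follows, and the cause was not tested. DEK was 0.14 without all arrays numbered 1 and 0.15 without those numbered 3. With single arrays left out it ranged from -1.52, without shEMPTY replicate 2, to 0.25. PMPCA was 0.10 without arrays numbered 1 and ranged from -0.32 to 0.047. SAMM50 was -0.027 without arrays numbered 2. TIMM10 was -0.0073 on the authors' table, -0.13 without arrays numbered 2 and -0.050 without those numbered 3, and ranged from -0.12 to 0.20. TIMM44 was -0.067 without arrays numbered 2 and ranged from -0.039 to 0.23. TIMM8B was 0.020 with array weights, 0.26 without arrays numbered 1 and 0.15 without both low libraries, and ranged from -0.24 to 0.10. TOMM5 was 0.041 without arrays numbered 1.

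With the replicate block, 0 import genes had an unadjusted p under 0.05 in limma, beside 1 without it, and the median was -0.08 in both. Same-numbered arrays of different groups correlated in their deviations between -0.43 and 0.27, and those with different numbers between -0.24 and 0.47. TIMM17A had no value where detection on all 9 arrays was required. The fit on the groups compared and the methods' t-test give no value for the average. Faint probes such as TIMM17A are limited by signal over background.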
